A study of Saccharomyces cerevisiae with 12 samples.

Results

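The nup60 deletion strain of budding yeast, Saccharomyces cerevisiae, was set directly against the ada2 deletion strain. The members are the 3 arrays titled as Dnup60 cells and the 3 titled as Dada2 cells, which are 6 of the 12 arrays of the series. The nup60 strain has the genotype MATa his3 leu2 met15 ura3 nup60Δ::KANR, and the ada2 strain has MATa his3 leu2 met15 ura3 ada2Δ::KANR. Both thus carry the kanamycin resistance cassette, the 4 auxotrophic markers and the a mating type. The double deletion strain carries both nup60Δ::KANR and ada2Δ::KANR in the same MATa background with the same markers, and the wild-type strain is MATa his3 leu2 met15 ura3 without the cassette, with 3 arrays each. Arrays of these other strains do not enter the test itself. All 12 arrays enter an alternative fit named below and the choice among several probe sets of a gene, and the wild-type arrays also place the values. Each array holds total RNA of 1 biological replicate, grown in rich medium (YEPD) at 30 °C with shaking and collected in mid-log phase. Values are log2 probe set intensities, and 5449 S. cerevisiae genes were tested. With 1 strain per deletion, the effect of a deletion and other differences between the strains cannot be told apart.

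Nup60 is a nucleoporin of the nuclear basket, the filamentous structure on the inner face of the nuclear pore complex, where it anchors other basket proteins such as Mlp1, Mlp2 and Nup2. The basket is known for roles in RNA export, in SUMO protease localisation and in holding active genes and telomeres near the nuclear envelope. Ada2 is a subunit of the acetyltransferase module of SAGA, a coactivator complex in which Gcn5 acetylates histone H3 at promoters, and Ada2 is needed for full Gcn5 activity. SAGA also contacts the pore through Sus1, a protein it shares with the TREX-2 export complex.

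The deleted genes were read first. NUP60 had log2 intensities of 6.43, 6.51 and 6.17 on the nup60 arrays, against 12.27, 12.23 and 12.19 on the ada2 arrays. It was -5.86 ± 0.084 on the log2 scale (nup60 minus ada2, SE, n = 3 arrays each, limma adjusted p = 5.67e-08), and its nup60 arrays all lay below its ada2 arrays. ADA2 had 10.69, 10.73 and 10.74 on the nup60 arrays, against 4.40, 4.03 and 4.26 on the ada2 arrays. The ada2 values lay below the array background of 5.62, so ADA2 was at least 34.2-fold higher in nup60 (limma adjusted p = 5.67e-08). The neighbours of ADA2 on the chromosome, UTP6 and RPS17B, did not pass the test, with differences of 0.07 ± 0.031 and 0.05 ± 0.026 (limma adjusted p = 0.0886 and 0.108). Of the neighbours of NUP60, TFC3 was lower in nup60 by 0.22 ± 0.058 and ERP1 by 0.09 ± 0.024 (limma adjusted p = 0.0134 and 0.0117). Neither call held in a fit of all 12 arrays (adjusted p = 0.0817 and 0.0705).

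The mating type and the markers were read in the same arrays. HMRA1, the a1 gene of a cells, had 11.12, 11.30 and 11.10 on the nup60 arrays, against 11.28, 11.42 and 11.26 on the ada2 arrays, and the groups overlapped. Its difference was -0.14 ± 0.067 (limma adjusted p = 0.0913). All 7 a-cell genes of the list were above background on every array of both strains, with summed linear intensities of 75120 to 84435 in nup60 and 33619 to 37040 in ada2. Of 5 measured alpha-cell genes, 3 were above background on every array, and the 5 summed to 1994 to 2155 in nup60 and 1688 to 1813 in ada2. Of these 5, HMLALPHA1 and MF(ALPHA)1 were below background on all 6 arrays (4.64 to 5.05 and 4.87 to 5.03 in nup60, 4.79 to 5.14 and 5.07 to 5.26 in ada2). Of 6 genes of sporulating cells, 5 were above background on every array. The 6 summed to 1022 to 1048 in nup60 and 855 to 1036 in ada2. URA3 and MET17 were below background on all 6 arrays. HIS3 was high in both strains although the labels name them his3, at 12.43 to 12.49 in nup60 and 12.48 to 12.59 in ada2. LEU2 was low in both, at 6.32 to 6.36 in nup60 and 6.59 to 6.84 in ada2.

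None of the 6 arrays stood apart. The median log2 intensity of the genes was 11.24 to 11.26 in nup60 and 11.21 to 11.23 in ada2, and 123 to 134 genes per array were below background. Mean log2 levels of the spike probe sets were 6.40 to 6.64 in nup60 and 6.51 to 6.69 in ada2. Across genes, arrays of the same strain correlated at 0.9987 or more, and arrays of different strains at 0.972 to 0.9749. Precision is set by there being 3 arrays a strain.

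The strains differed at many genes by small amounts and at fewer genes by large ones. Of 5449 genes, 1770 were higher in nup60 and 1967 were lower at a Benjamini-Hochberg adjusted p below 0.05 (limma), together 68.6% of the genes tested. The shares by direction were 32.5% higher and 36.1% lower. The median size of a difference that passed was 0.27 on the log2 scale, and the median standard error over all genes was 0.035. In whole cultures, fewer cells of a kind and less RNA per cell cannot be told apart. The split turned with size. At a log2 difference of at least 0.5 there were 496 genes higher and 242 lower. At least 2-fold, a log2 difference of 1, there were 162 higher (2.97%) and 33 lower (0.606%). At a log2 difference of at least 2 the counts were 32 and 4. All these counts include the deleted genes, ADA2 among the higher and NUP60 among the lower. The 3 arrays of one strain all lay above the 3 of the other for all 195 genes at least 2-fold apart, against 34.8% (nup60 above) and 39.5% (ada2 above) of all genes. These 195 were chosen by size and test on the same arrays, so their separation largely follows from the choice. Genes at least 2-fold higher had a median level of 10.04, those at least 2-fold lower 10.15, and all genes 11.23.

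**Figure D1:**
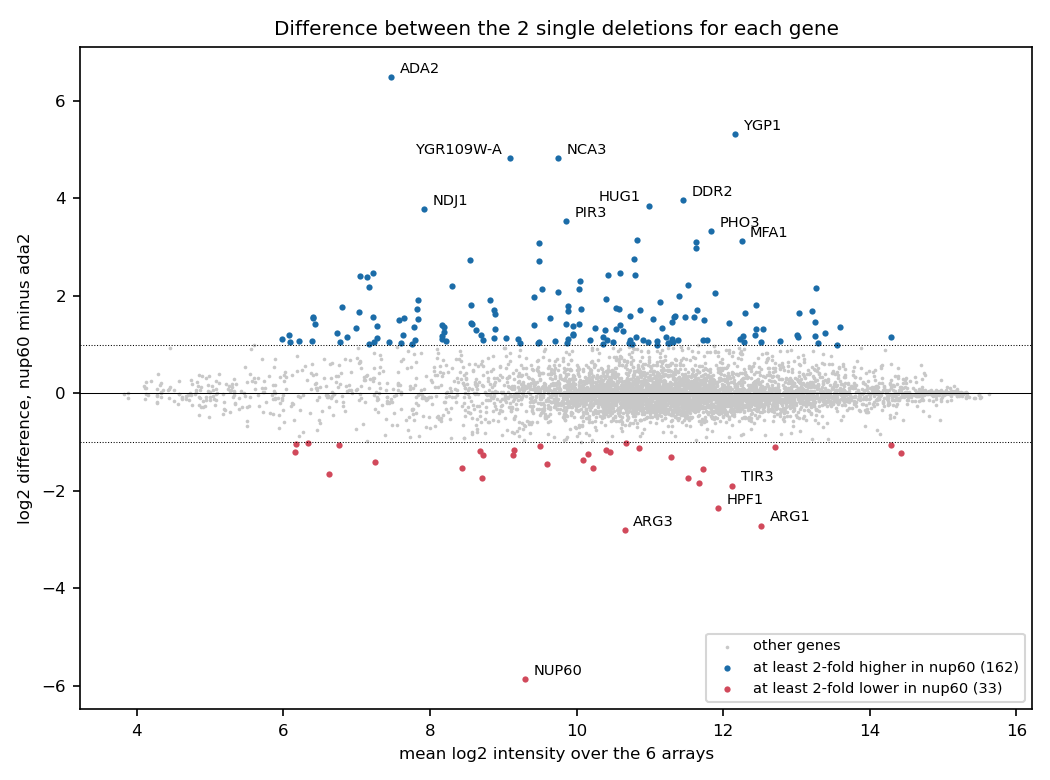
Log2 difference (nup60 minus ada2) of each of 5449 genes against its mean log2 intensity over the 6 arrays, 1 point per gene. Blue points mark the 162 genes at least 2-fold higher in nup60 and red points the 33 at least 2-fold lower, past the test, and dotted lines mark 2-fold. The blue points outnumber the red and reach further from 0 when the deleted genes NUP60 and ADA2 are set aside.

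After ADA2, the gene most above its ada2 level in nup60 was YGP1, which encodes a secreted cell wall-related glycoprotein made under nutrient limitation. It had 14.81, 14.85 and 14.79 on the nup60 arrays, against 9.46, 9.28 and 9.76 on the ada2 arrays, a difference of 5.32 ± 0.11 (limma adjusted p = 2.09e-07). NCA3, of the SUN family of wall-associated proteins, had 12.18, 12.22 and 12.10 on the nup60 arrays, against 7.35, 7.06 and 7.58 on the ada2 arrays and differed by 4.83 ± 0.12. The wild-type arrays read 9.06 to 9.22 for NCA3 and 13.36 to 13.45 for YGP1, between the deletion strains in both cases. YGR109W-A, a gene of the Ty3 retrotransposon whose probe set can detect several copies, had 11.87, 11.38 and 11.25 on the nup60 arrays, against 6.69, 6.63 and 6.72 on the ada2 arrays and differed by 4.82 ± 0.15.

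DDR2, a multistress response gene, had 13.53, 13.44 and 13.37 on the nup60 arrays, against 9.50, 9.37 and 9.54 on the ada2 arrays, a difference of 3.97 ± 0.057. HUG1, a DNA damage-induced inhibitor of ribonucleotide reductase, had 12.98, 13.00 and 12.75 on the nup60 arrays, against 9.01, 9.03 and 9.14 on the ada2 arrays and differed by 3.85 ± 0.071. The 15 largest each way were taken only from genes whose arrays did not overlap between the strains. NDJ1, a protein of meiotic telomeres, was at 9.76 to 9.88 in nup60 and at 5.77 to 6.35 in ada2, where it lay just above background (3.78 ± 0.14). The wall protein gene PIR3 differed by 3.54 ± 0.069, the thiamine-repressed acid phosphatase gene PHO3 by 3.33 ± 0.066 and the stress-linked RTC3 by 3.14 ± 0.077. The a-factor gene MFA1 (3.13 ± 0.065), the plasma membrane protein gene YRO2 (3.11 ± 0.054), FMP16 (3.08 ± 0.13), the alpha-factor protease gene BAR1 (2.99 ± 0.080) and the glycogen phosphorylase gene GPH1 (2.76 ± 0.094) complete the 15 largest.

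In the other direction the arginine genes led. ARG3, which encodes ornithine carbamoyltransferase, had 9.14, 9.26 and 9.37 on the nup60 arrays, against 12.25, 11.95 and 11.97 on the ada2 arrays, a difference of -2.80 ± 0.092 (limma adjusted p = 1.04e-06). ARG1, which encodes argininosuccinate synthetase, had 11.04, 11.19 and 11.25 on the nup60 arrays, against 14.01, 13.73 and 13.88 on the ada2 arrays and differed by -2.71 ± 0.082. HPF1, a wall mannoprotein gene, had 10.28, 10.87 and 11.12 on the nup60 arrays, against 13.37, 12.86 and 13.10 on the ada2 arrays, with a wider spread in nup60 than in ada2 (-2.35 ± 0.22). TIR3, a mannoprotein gene of anaerobic cells, was at 11.13 to 11.20 in nup60 and 13.02 to 13.12 in ada2 (-1.89 ± 0.037), and ANB1, the hypoxic form of translation factor eIF5A, at 10.73 to 10.76 in nup60 and 12.48 to 12.72 in ada2 (-1.84 ± 0.058). The high-affinity zinc transporter gene ZRT1 differed by -1.75 ± 0.028, with 10.61 to 10.67 in nup60 and 12.36 to 12.40 in ada2.

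The remaining genes among the 15 lowest were of mixed kinds. YKR041W, of unknown function, differed by -1.74 ± 0.026, and PRY3, a wall-anchored sterol-binding protein gene, by -1.54 ± 0.032. FRE5, a putative ferric reductase gene, differed by -1.64 ± 0.25, with 1 nup60 array at 5.16, below background, and the other two at 6.06 and 6.17. CMC4, a mitochondrial intermembrane space protein gene, differed by -1.53 ± 0.058, ICS3 by -1.52 ± 0.067, ECM13 by -1.45 ± 0.098, PHM6, a gene of the phosphate regulon, by -1.40 ± 0.14, and the carnitine acetyltransferase gene YAT1 by -1.38 ± 0.054. PRY3, ZRT1 and YKR041W varied little among replicates, with ranges of 12.49 to 12.50, 12.36 to 12.40 and 9.57 to 9.59 in ada2.

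**Figure D2:**
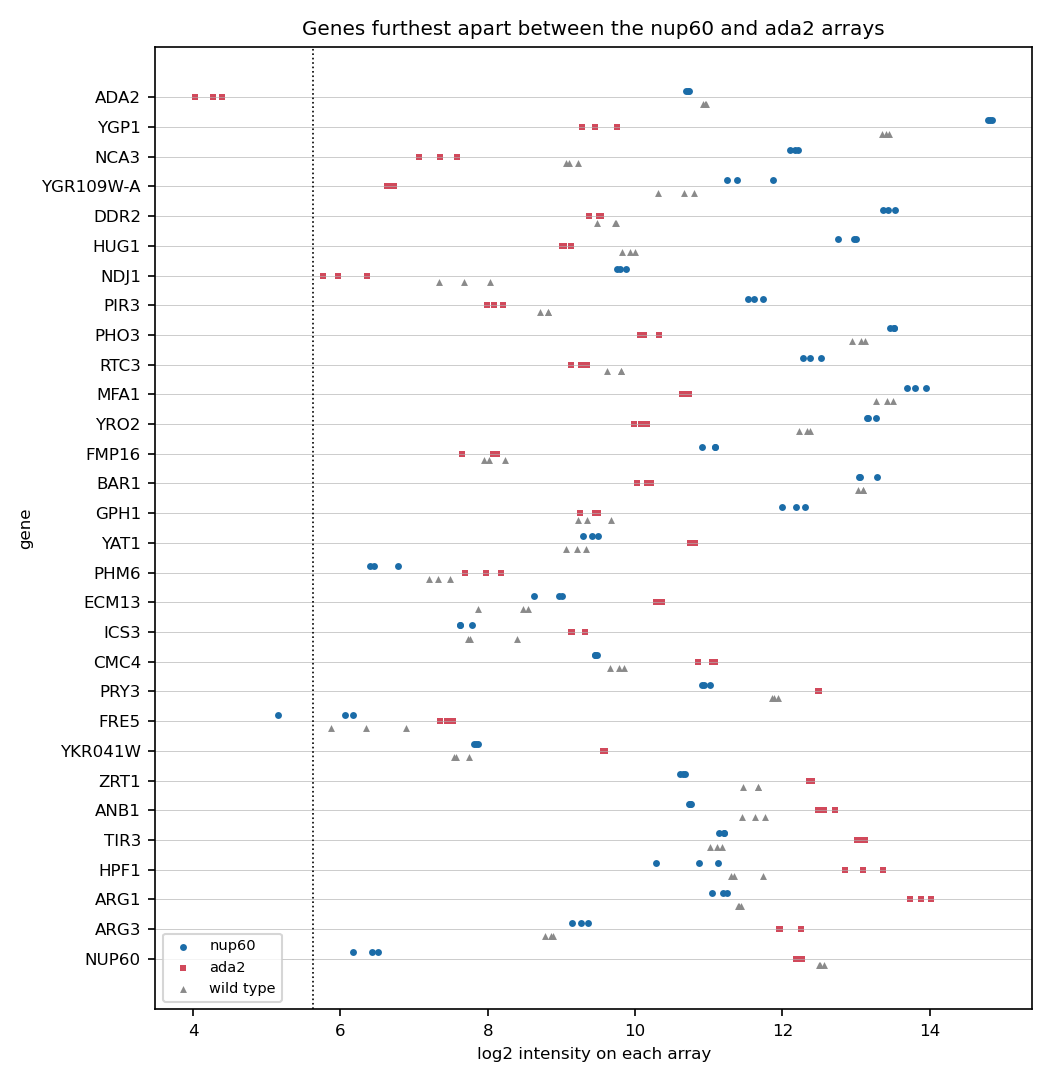
Log2 intensity on each array for the 15 genes most higher and the 15 most lower in nup60, with nup60 arrays as blue circles, ada2 arrays as red squares and wild-type arrays as grey triangles. The dotted line is the background level of 5.62. Genes were taken only where the nup60 and ada2 points do not overlap. The wild-type points lie near the nup60 ones for BAR1 (13.07 on average), near the ada2 ones for GPH1 (9.42) and between them for NCA3 (9.13).

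Stress genes were higher in nup60 than in ada2 across nearly the whole list. The general stress list holds genes assigned, from general knowledge, to the transcription factors Msn2 and Msn4. Of 61 measured, 56 were higher in nup60 and 2 lower (91.8% and 3.28%, against 32.5% and 36.1% of all genes). Their median difference was 0.99 on the log2 scale, that of all genes -0.01, and 30 members were at least 2-fold higher. Control of the members by Msn2 and Msn4 was not tested. The 2 lower members were ROX1, the repressor of hypoxic genes (-0.23 ± 0.031), and DOG2, a sugar phosphatase gene whose probe set can detect a related gene (-0.27 ± 0.034). The 3 that did not pass were ALD4, DCS1 and PAI3, with 95% intervals of the difference of -0.06 to 0.12, -0.10 to 0.02 and -0.46 to 0.24.

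Genes listed, from general knowledge, as chaperones under the heat shock factor Hsf1 lay the same way. Of 27 measured, 25 were higher in nup60 and 0 lower (92.6%, median 0.45). BTN2, which sorts misfolded proteins, had 12.39, 12.37 and 12.43 on the nup60 arrays, against 10.18, 10.44 and 10.57 on the ada2 arrays, with no overlap (limma adjusted p = 3.96e-06). The small heat shock protein gene HSP42 differed by 1.82 ± 0.056, the Hsp70 gene SSA4 by 1.56 ± 0.066 and CUR1, a paralogue of BTN2, by 1.43 ± 0.067. HSP30, a membrane heat shock protein gene counted in this list, differed by 1.74 ± 0.056, and its control by Hsf1 was not tested. HSP82, the inducible Hsp90 gene, had 13.85, 13.87 and 13.84 on the nup60 arrays, against 12.63, 12.66 and 12.71 on the ada2 arrays and differed by 1.18 ± 0.029. The 2 that did not pass, SSA2 and HSC82, are the constitutive Hsp70 and Hsp90 forms and stood at 0.06 ± 0.023 and 0.00 ± 0.023.

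Storage carbohydrate genes were mostly higher in nup60. In glycogen metabolism 10 of 12 were higher and 1 lower (83.3% and 8.33%, against 32.5% and 36.1% of all genes, median 0.63). GPH1 had 12.31, 12.18 and 11.99 on the nup60 arrays, against 9.25, 9.50 and 9.46 on the ada2 arrays. GAC1, a regulatory subunit of the Glc7 phosphatase, differed by 1.23 ± 0.061, the branching enzyme gene GLC3 by 1.04 ± 0.048, and the synthase gene GSY1 by 0.74 ± 0.070. The single lower member was SGA1, a glucoamylase gene of sporulation, with 8.98, 8.98 and 8.89 on the nup60 arrays, against 9.55, 9.55 and 9.55 on the ada2 arrays (-0.60 ± 0.031). In trehalose metabolism 5 of 7 were higher and 0 lower (71.4% higher, median 0.44), led by the phosphatase gene TPS2 (0.97 ± 0.051) and the trehalase gene NTH1 (0.85 ± 0.041). The synthase gene TPS1 differed by 0.51 ± 0.029.

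Proteasome and mitochondrial ribosomal protein genes were mostly higher in nup60, by small amounts. Of 35 proteasome genes 32 were higher in nup60 and 1 lower (91.4%, median 0.26). RPN4, the activator of proteasome genes, stood at the top with 0.73 ± 0.029, and the regulatory particle gene RPN3 followed with 0.43 ± 0.027. The lower member was SEM1 (-0.14 ± 0.041), a small lid subunit. Of 71 mitochondrial ribosomal protein genes 62 were higher and 2 lower (87.3%, median 0.26), from MRPL31 at 0.74 ± 0.044 to MRPL39 at -0.17 ± 0.029. No member of either list was 2-fold apart.

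Respiratory chain and ATP synthase genes were higher for 31 of 41 and lower for 1 (75.6%, median 0.29). The largest differences were those of the hypoxic cytochrome c gene CYC7 (0.94 ± 0.091), the external NADH dehydrogenase gene NDE1 (0.90 ± 0.045), the ATPase inhibitor gene INH1 (0.89 ± 0.063) and the succinate dehydrogenase gene SDH2 (0.86 ± 0.067). CYC1, the main cytochrome c gene, had 12.80, 12.58 and 12.63 on the nup60 arrays, against 11.77, 11.93 and 11.86 on the ada2 arrays, a difference of 0.81 ± 0.066. Of 19 TCA cycle genes 11 were higher and 4 lower (57.9% and 21.1%, median 0.23). The citrate synthase gene CIT1 had 13.68, 13.54 and 13.57 on the nup60 arrays, against 12.39, 12.47 and 12.47 on the ada2 arrays (1.16 ± 0.045), and the isocitrate dehydrogenase gene IDH1 differed by 0.78 ± 0.040.

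**Figure D3:**
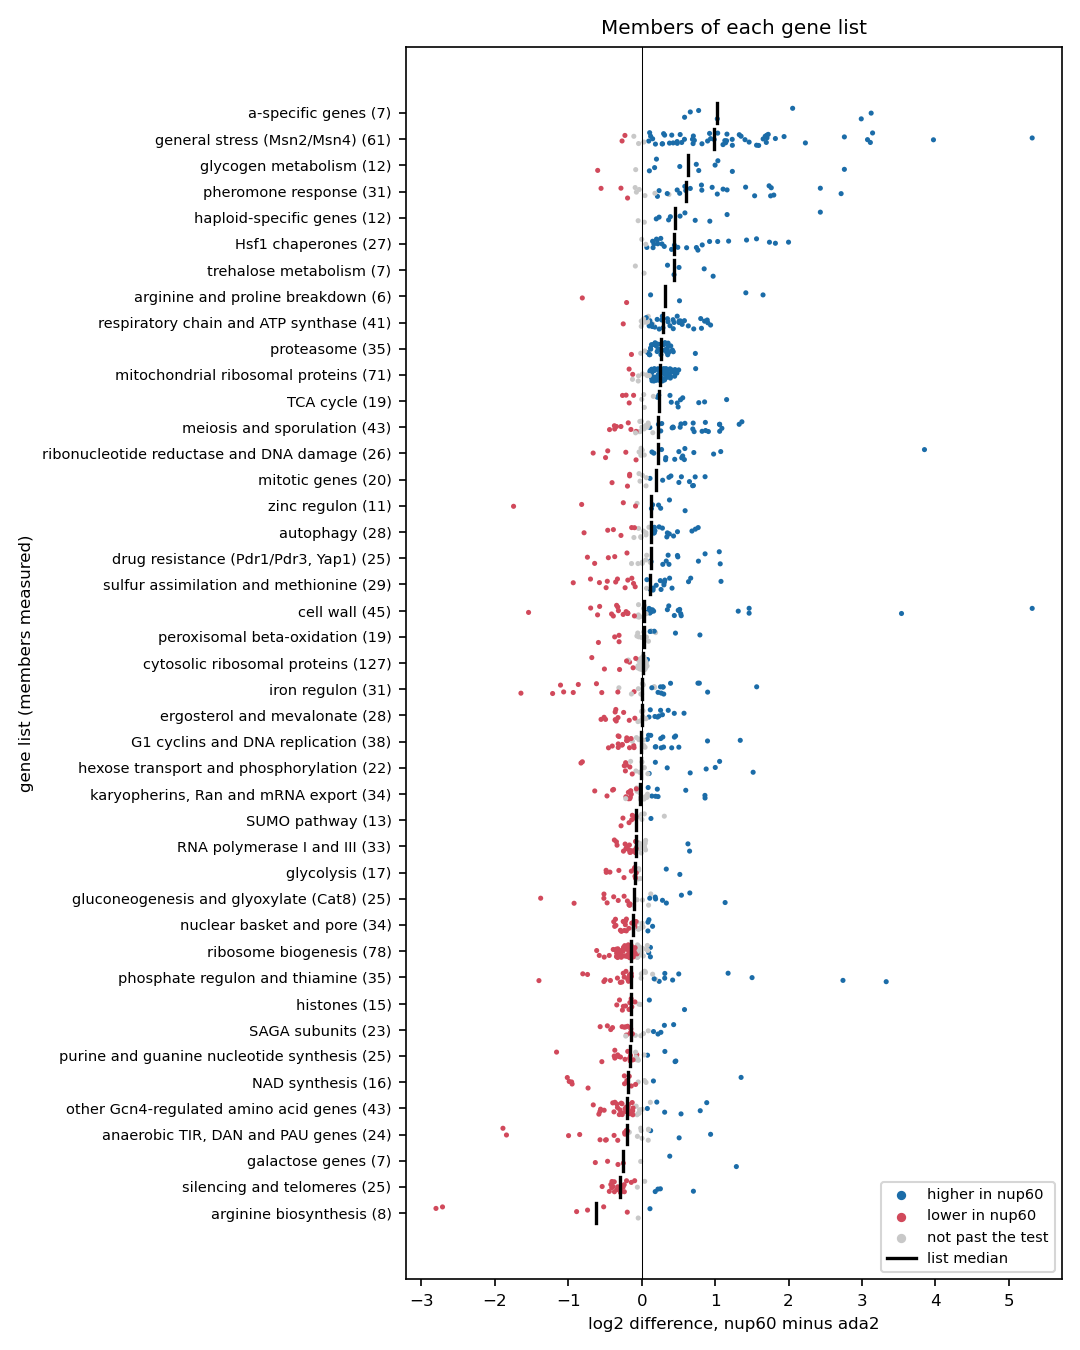
Log2 difference (nup60 minus ada2) of every measured member of each gene list, 1 point per gene, blue where higher in nup60 past the test, red where lower and grey where not past it, with a black bar at the list median. The lists of alpha-cell genes, sporulating-cell genes and chromosome ends are not drawn. NUP60 and ADA2 are left off the plot and kept in the medians. The bars run from 1.03 for a-specific genes to -0.63 for arginine biosynthesis, and stress points reach up to 5.32 while proteasome points reach up to 0.73.

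Genes of the a mating programme were higher in nup60 than in ada2. All 7 a-specific genes passed in this direction (7 of 7, against 32.5% of all genes, median 1.03). MFA1, one of the genes for the a-factor pheromone, had 13.95, 13.80 and 13.69 on the nup60 arrays, against 10.70, 10.64 and 10.73 on the ada2 arrays, and MFA2, the other, 14.52, 14.44 and 14.40 on the nup60 arrays, against 13.80, 13.99 and 13.82 on the ada2 arrays (0.58 ± 0.057). BAR1 had 13.29, 13.04 and 13.05 on the nup60 arrays, against 10.03, 10.22 and 10.16 on the ada2 arrays. The agglutinin subunit gene AGA2 differed by 2.06 ± 0.065, ASG7 by 1.03 ± 0.092, the a-factor exporter gene STE6 by 0.78 ± 0.049 and the alpha-factor receptor gene STE2 by 0.66 ± 0.042. Group ranges did not overlap for any of the 7, where 34.8% of all genes had the nup60 arrays all above the ada2 arrays. The sizes spanned 0.58 to 3.13.

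Pheromone response genes, which act downstream of the receptor, were mostly higher as well. Of 31 pheromone response genes 22 were higher in nup60 and 3 lower (71% and 9.68%, median 0.60). The cell fusion gene FUS1 had 11.05, 10.66 and 10.84 on the nup60 arrays, against 8.14, 8.24 and 8.02 on the ada2 arrays, a difference of 2.72 ± 0.10. FAR1, the inhibitor that arrests the cycle on pheromone, had 11.78, 11.59 and 11.57 on the nup60 arrays, against 9.07, 9.26 and 9.32 on the ada2 arrays (2.43 ± 0.080). AFR1 differed by 1.80 ± 0.047, FIG1 by 1.76 ± 0.18 with ada2 array 1 just below background, PRM5 by 1.76 ± 0.064 and SST2, which turns the signal off at the G protein, by 1.74 ± 0.056. The 3 lower members were SCW10 (-0.19 ± 0.032), KAR3 (-0.28 ± 0.029) and the sterol reductase gene ERG24 (-0.55 ± 0.023), which act in the wall, in nuclear fusion and in sterol synthesis.

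Of 12 haploid-specific genes 10 were higher in nup60 and 0 lower (83.3% higher, against 32.5% of all genes, median 0.46). The largest difference of this list was 2.43, that of FAR1, which the pheromone response list also holds. The kinase gene FUS3 differed by 1.16 ± 0.046 and the G protein alpha subunit gene GPA1 by 0.93 ± 0.038, with 12.64 to 12.75 in nup60 and 11.71 to 11.80 in ada2. The beta subunit gene STE4 differed by 0.39 ± 0.040 and the scaffold gene STE5 by 0.37 ± 0.023. STE12, the transcription factor of the pathway, differed by less, 0.24 ± 0.060 (limma adjusted p = 0.0107), and its ranges of 11.46 to 11.60 in nup60 and 11.21 to 11.42 in ada2 lay close together. Its call was lost in a fit of all 12 arrays (limma adjusted p = 0.199). The 2 that did not pass included the gamma subunit gene STE18 (-0.05 ± 0.058, limma adjusted p = 0.487). The alpha-cell genes gave no such shift, with 1 of 5 higher, SAG1 (0.34 ± 0.053), and 1 lower, MF(ALPHA)1 (-0.25 ± 0.061, below background in both strains).

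Genes of arginine biosynthesis were mostly lower in nup60. In biosynthesis 6 of 8 measured genes were lower in nup60 and 1 higher (75% and 12.5%, median -0.63). Besides ARG3 and ARG1, ARG8, the acetylornithine aminotransferase gene, had 11.34, 11.30 and 11.33 on the nup60 arrays, against 12.33, 12.18 and 12.12 on the ada2 arrays (-0.89 ± 0.053), and ARG7 differed by -0.74 ± 0.055. The carbamoyl phosphate synthetase gene CPA1 differed by -0.52 ± 0.046 and ARG4 by -0.20 ± 0.034. ARG2, for the first step, was the higher one, by 0.11 ± 0.034. Its call was lost on centring the arrays at their medians (limma adjusted p = 0.0564) and with quantile normalization (limma adjusted p = 0.156). It was also lost without nup60 array 1, nup60 array 3 or ada2 array 3 (limma adjusted p = 0.0741, 0.0642 and 0.0549). The mitochondrial ornithine exporter gene ORT1 did not pass (-0.05 ± 0.032). In arginine and proline breakdown 4 of 6 were higher and 2 lower (66.7% and 33.3%), and a difference between the lists was not tested. CAR2, ornithine transaminase, had 13.86, 13.82 and 13.88 on the nup60 arrays, against 12.16, 12.22 and 12.22 on the ada2 arrays (1.65 ± 0.031), and the proline oxidase gene PUT1 had 10.78, 10.81 and 10.63 on the nup60 arrays, against 9.38, 9.26 and 9.34 on the ada2 arrays (1.42 ± 0.055). The lower ones were the proline permease gene PUT4 (-0.81 ± 0.11) and PRO3 (-0.21 ± 0.029), a proline synthesis gene whose call was lost in a fit of all 12 arrays (limma adjusted p = 0.0688).

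**Figure D4:**
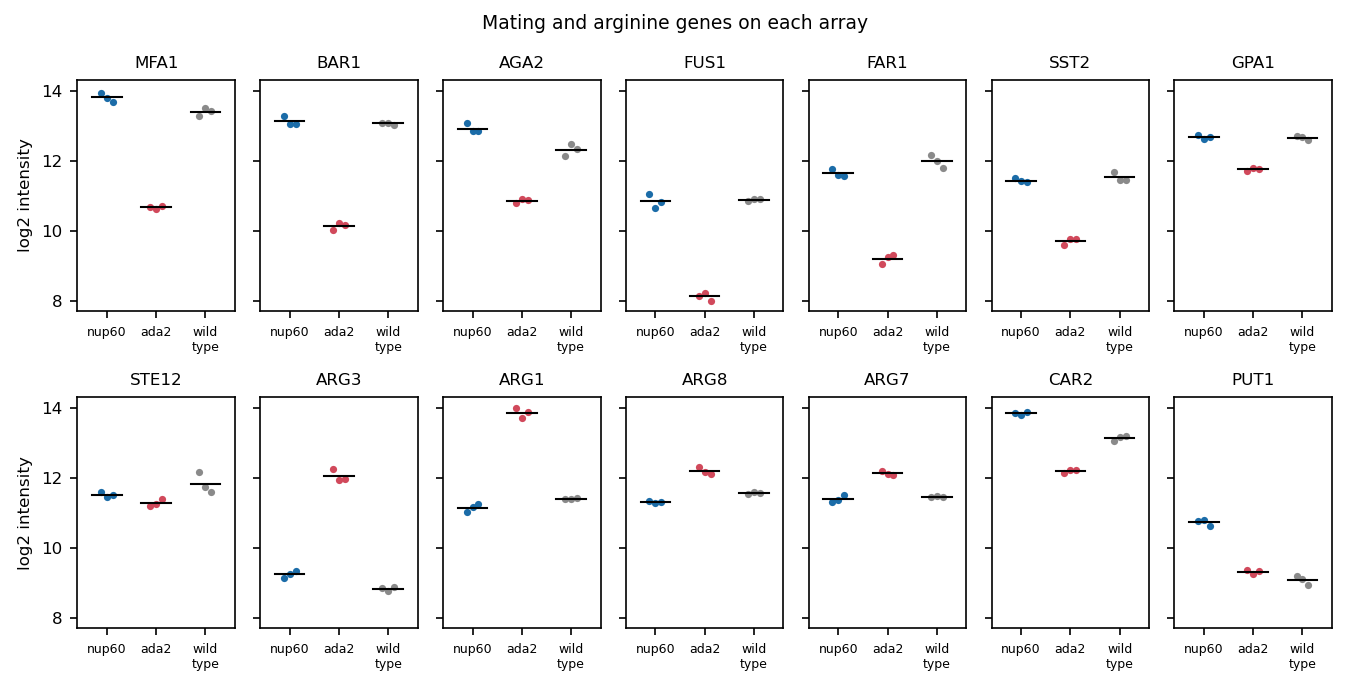
Log2 intensity of 8 mating genes and 6 arginine or proline genes, 1 point per array and a bar at the group mean, with the nup60, ada2 and wild-type arrays from left to right in each panel. The mating genes have their lowest points in ada2, with the smallest gap between the deletions for STE12. ARG3, ARG1, ARG8 and ARG7 have their highest points in ada2, while the wild-type mean lies between the deletions for CAR2 (13.15) and below both for PUT1 (9.10).

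Other amino acid genes listed as under the activator Gcn4 were mostly lower in nup60, with 30 of 43 lower and 6 higher (69.8% and 14%, median -0.20). The lysine genes LYS20, LYS2 and LYS21 were lower by 0.66 ± 0.044, 0.58 ± 0.041 and 0.57 ± 0.038. Among the higher ones were LEU9 (0.89 ± 0.046), LEU1 (0.80 ± 0.064) and the branched-chain transaminase gene BAT1 (0.54 ± 0.035). LEU9, an isopropylmalate synthase gene, had 12.46, 12.49 and 12.49 on the nup60 arrays, against 11.68, 11.50 and 11.60 on the ada2 arrays. Sulfur genes were split, 16 of 29 higher and 12 lower (55.2% and 41.4%, against 32.5% and 36.1% of all genes). MET32, a regulator of the pathway, was higher (1.08 ± 0.065), and MET6, the methionine synthase gene, lower (-0.93 ± 0.030), as was MET13 (-0.70 ± 0.036). NAD synthesis genes were lower for 11 of 16 (7 to 12 over the alternatives) and higher for 2, or 68.8% and 12.5%. The kynurenine pathway genes BNA7, BNA2 and BNA5 were lower by 1.01 ± 0.044, 0.95 ± 0.039 and 0.95 ± 0.033, and the nicotinamidase gene PNC1 was higher by 1.35 ± 0.048. Purine and guanine nucleotide genes were lower for 15 of 25 and higher for 4 (60% and 16%). The permease-family gene FCY21 was lowest (-1.16 ± 0.036) and ADE1 stood at -0.54 ± 0.027.

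Nutrient uptake genes differed in both directions. In the iron regulon 12 of 31 were higher and 10 lower (38.7% and 32.3%), near the 32.5% and 36.1% of all genes. FIT2, FIT3 and ATX1, which encode wall siderophore-binding mannoproteins and a copper chaperone, were lower by 1.21 ± 0.20, 1.06 ± 0.24 and 1.11 ± 0.051, and the permease gene FTR1 by 0.93 ± 0.052. LSO1 was higher by 1.57 ± 0.11, with ada2 array 3 below background. In the phosphate and thiamine list 10 of 35 were higher and 18 lower (28.6% and 51.4%). PHO3 had 13.52, 13.52 and 13.46 on the nup60 arrays, against 10.32, 10.06 and 10.13 on the ada2 arrays. PHM8, a nucleotide phosphatase gene, had 9.92, 10.004 and 9.84 on the nup60 arrays, against 7.27, 7.28 and 6.99 on the ada2 arrays (2.74 ± 0.086), and the phosphate transporter gene PHO84 was higher by 1.503 ± 0.11. PHO5, the repressible acid phosphatase gene and a known SAGA target, was lower than in ada2 by 0.80 ± 0.030, with 8.94 to 9.001 in nup60 and 9.74 to 9.81 in ada2. In the zinc list 6 of 11 were higher and 4 lower (54.5% and 36.4%). ZRT1 and ZPS1 (-0.82 ± 0.069) were lower and the low-affinity transporter gene ZRT2 was higher (0.59 ± 0.028).

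Carbon metabolism genes differed in both directions. Of 22 hexose transport genes 8 were higher and 8 lower (36.4% each), near the 32.5% and 36.1% of all genes. The transporter genes HXT5 and HXT4 and the kinase gene HXK1 were higher by 1.52 ± 0.069, 1.06 ± 0.031 and 1.002 ± 0.041, and HXT9 and HXT1 were lower by 0.83 ± 0.079 and 0.81 ± 0.034. Of 25 gluconeogenesis and glyoxylate genes 12 were lower and 8 higher (5 to 9 over the alternatives), or 48% and 32%. CAT8, their activator, had 7.82, 7.74 and 7.92 on the nup60 arrays, against 8.67, 8.80 and 8.78 on the ada2 arrays (-0.92 ± 0.055), and the carnitine carrier gene CRC1 was higher (1.14 ± 0.023). Glycolytic genes were lower for 11 of 17 (7 to 14 over the alternatives) and higher for 2, or 64.7% and 11.8%, with a median of -0.09. TDH1 was higher (0.52 ± 0.040), and the phosphofructokinase genes PFK2 and PFK1 were lower by 0.48 ± 0.030 and 0.43 ± 0.029. Of 7 galactose genes 4 were lower and 2 higher (57.1% and 28.6%). GAL10 stood at -0.63 ± 0.071 and GAL1 at -0.25 ± 0.070, and the 2 higher were GCY1 and GAL80 (1.29 ± 0.12 and 0.38 ± 0.036). Peroxisomal beta-oxidation genes were higher for 5 and lower for 4 of 19 (26.3% and 21.1%), both below the shares of all genes. The catalase gene CTA1 was highest (0.79 ± 0.078).

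Surface and membrane genes followed. Of 24 anaerobic genes 13 were lower in nup60 and 3 higher (54.2% and 12.5%, median -0.20). Besides TIR3 and ANB1, the sterol importer gene AUS1 was lower (-0.996 ± 0.054), as was the ADP/ATP carrier gene AAC3 (-0.84 ± 0.046). The hypoxic cytochrome c gene CYC7, also in this list, went the other way and was its highest member (0.94 ± 0.091). Of 45 cell wall genes 21 were higher and 15 lower (46.7% and 33.3%, against 32.5% and 36.1% of all genes). SPI1, CWP1 and the glucan synthase gene GSC2 were higher by 1.46 ± 0.029, 1.46 ± 0.045 and 1.31 ± 0.047. Drug resistance genes were higher for 12 of 25 and lower for 5 (48% and 20%). The exporter gene QDR2 (1.07 ± 0.064) and the sphingolipid gene IPT1 (1.06 ± 0.026) led. Of 28 ergosterol genes 10 were higher and 11 lower (35.7% and 39.3%), near the shares of all genes. ERG9 was highest (0.58 ± 0.024) and ERG24 lowest.

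Cell cycle, DNA damage and meiotic genes differed in part. Of 26 genes of ribonucleotide reductase and DNA damage 15 were higher and 5 lower (median 0.22). These are 57.7% and 19.2%, against 32.5% and 36.1% of all genes. HUG1 stood far above the rest, followed by PLM2 (1.08 ± 0.053) and RNR3, the damage-inducible large subunit (0.98 ± 0.051). The photolyase gene PHR1 was lowest (-0.66 ± 0.068). The S-phase cyclin gene CLB6 had 11.86, 11.80 and 11.86 on the nup60 arrays, against 10.51, 10.43 and 10.54 on the ada2 arrays (1.34 ± 0.036). The G1 cyclin gene CLN1 differed by 0.90 ± 0.040. The whole list of G1 cyclins and replication genes had 15 higher and 15 lower of 38 (39.5% each), near the shares of all genes. Of 20 mitotic genes 11 were higher and 4 lower (55% and 20%). SPO12 (0.86 ± 0.038) and the cyclin gene CLB2 (0.73 ± 0.050) were highest and CLB1 was lower (-0.40 ± 0.039). Of 43 meiosis genes 23 were higher and 8 lower (53.5% and 18.6%), the lower count running from 5 to 11 over the alternatives. REC104, MEI4 and REC102, of the machinery that starts recombination, were higher by 1.36 ± 0.096, 1.06 ± 0.072 and 1.06 ± 0.18, and the regulators RIM4 and IME2 by 1.33 ± 0.066 and 1.09 ± 0.051. Autophagy genes were higher for 14 of 28 (8 to 14 over the alternatives) and lower for 6, or 50% and 21.4%. ATG16 was highest (0.77 ± 0.093) and ATG10 lowest (-0.79 ± 0.037).

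Ribosome biogenesis genes were mostly lower in nup60, by small amounts. Of 78 ribosome biogenesis genes 49 were lower and 3 higher (62.8% and 3.85%, median -0.14), none of them 2-fold. MPP10, UTP20 and NOP9, factors of small subunit processing, were lower by 0.61 ± 0.026, 0.58 ± 0.032 and 0.51 ± 0.029. RNA polymerase I and III genes were lower for 18 of 33 and higher for 2 (54.5% and 6.06%, against 36.1% and 32.5% of all genes). The higher ones were RRN7 (0.65 ± 0.037) and RRN3 (0.63 ± 0.036), initiation factors of polymerase I. Of 127 cytosolic ribosomal protein genes 119 did not pass, 7 were lower and 1 higher (5.51% lower and 0.787% higher). The lower count ran from 6 to 11 and the higher from 0 to 14 over the alternatives, the last with an intensity trend. RPS9A was lowest (-0.68 ± 0.038), and its list had a median of 0.01.

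Nuclear pore and SAGA genes were lower in nup60 more often than higher. Of 34 basket and pore genes 22 were lower, NUP60 among them, and 4 higher (64.7% and 11.8%, median -0.11). Next to NUP60 came the inner ring gene NUP192 (-0.38 ± 0.029), the membrane ring gene POM152 (-0.37 ± 0.030) and the basket gene MLP1 (-0.35 ± 0.033). MLP1 had 11.42, 11.41 and 11.46 on the nup60 arrays, against 11.83, 11.73 and 11.77 on the ada2 arrays. In a fit of all 12 arrays 12 were lower. Of 23 SAGA and ADA genes 12 were lower and 6 higher (52.2% and 26.1%, against 36.1% and 32.5% of all genes), ADA2 among the higher. SPT8 (-0.57 ± 0.034), TRA1 (-0.47 ± 0.031) and the acetyltransferase gene GCN5 (-0.42 ± 0.030) were lower, and AHC1, a subunit of the ADA complex, was higher (0.44 ± 0.046). GCN5 had 11.05, 11.02 and 11.08 on the nup60 arrays, against 11.46, 11.51 and 11.44 on the ada2 arrays.

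Silencing and telomere genes were lower for 19 of 25 and higher for 4 (76% and 16%, median -0.29). The Ku subunit gene YKU80 had 9.61, 9.53 and 9.59 on the nup60 arrays, against 10.12, 10.14 and 10.08 on the ada2 arrays (-0.54 ± 0.032), and the histone methyltransferase gene DOT1 differed by -0.44 ± 0.033. The deacetylase gene HST3 was higher (0.70 ± 0.029). Histone and histone regulator genes were lower for 11 of 15 and higher for 2 (73.3% and 13.3%, against 36.1% and 32.5% of all genes). HTZ1, the H2A.Z variant, stood at -0.34 ± 0.027 and the regulator SPT21 at 0.58 ± 0.036. SUMO pathway genes were lower for 7 of 13 (2 to 7 over the alternatives) and higher for 1, or 53.8% and 7.69%. The higher one was the modifier gene SMT3 itself (0.13 ± 0.023). Of 34 karyopherin, Ran and export genes 13 were lower (8 to 15 over the alternatives) and 8 higher, or 38.2% and 23.5% against 36.1% and 32.5% of all genes, with GSP2, a Ran gene, highest (0.86 ± 0.031) and the importin gene KAP122 lowest (-0.64 ± 0.041). Among the outermost 10 genes of each chromosome end, 235 of 320 were measured, 102 were lower and 65 higher (43.4% and 27.7%, against 36.1% and 32.5% of all genes). YIR042C, of unknown function, was highest (2.40 ± 0.27, with ada2 arrays 1 and 2 below background) and ZRT1 lowest.

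The wild-type arrays place each strain. They enter both deletions' values against wild type, so these are given side by side only, from a fit of all 12 arrays. Wild-type array 1 stood apart in its spike probe sets (8.39, against 6.52 and 6.48 on arrays 2 and 3), and its part in the values was not tested beyond the counts without it, an alternative chosen after seeing the data. Of the 162 genes at least 2-fold higher in nup60, the wild-type mean lay below both strains for 49, between them and nearer ada2 for 46, between them and nearer nup60 for 48 and above both for 19. Without wild-type array 1 these counts were 50, 47, 45 and 20. Of the 33 genes at least 2-fold lower, the wild-type mean lay between the strains and nearer nup60 for 16, below both for 9, between and nearer ada2 for 6 and above both for 2, and without wild-type array 1 for 17, 8, 6 and 2.

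Named genes were placed differently. DDR2, FMP16 and GPH1 differed from wild type mainly on the nup60 side, with log2 differences of 3.79 in nup60 and -0.18 in ada2 for DDR2 and 2.75 in nup60 and -0.02 in ada2 for GPH1. BAR1, FUS1, ARG1 and TIR3 did so mainly on the ada2 side, with 0.06 in nup60 and -2.93 in ada2 for BAR1 and 0.08 in nup60 and 1.97 in ada2 for TIR3. Wild type lay between the strains for YGP1 (1.41 in nup60 and -3.91 in ada2), NCA3 (3.04 in nup60 and -1.80 in ada2), HSP82 (0.49 in nup60 and -0.69 in ada2), ANB1 (-0.87 in nup60 and 0.97 in ada2) and ZRT1 (-0.96 in nup60 and 0.79 in ada2). Another kind lay above wild type in both strains and more so in nup60, as SOL4 (3.25 in nup60 and 1.31 in ada2) and HSP26 (3.39 in nup60 and 1.69 in ada2). IMD2, the IMP dehydrogenase gene whose probe set can detect related genes, was far below wild type in both (-2.46 in nup60 and -2.17 in ada2) while the strains themselves differed by -0.29 ± 0.093 (limma adjusted p = 0.0279). SOL4, HSP26 and IMD2 were picked after their values were seen.

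At the level of lists, the median difference from wild type of general stress genes was 1.23 in nup60 and 0.25 in ada2. For a-specific genes the medians were 0.16 and -0.97 in the same order of strains, and for arginine biosynthesis -0.08 and 0.60. Hsf1 chaperones lay on opposite sides of wild type, at 0.35 in nup60 and -0.12 in ada2, and so did proteasome genes (0.17 in nup60 and -0.07 in ada2) and mitochondrial ribosomal protein genes (0.16 in nup60 and -0.11 in ada2). Ribosome biogenesis genes lay below wild type in both, at -0.32 in nup60 and -0.17 in ada2. The medians over all genes tested were -0.02 in nup60 and -0.01 in ada2.

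**Figure D5:**
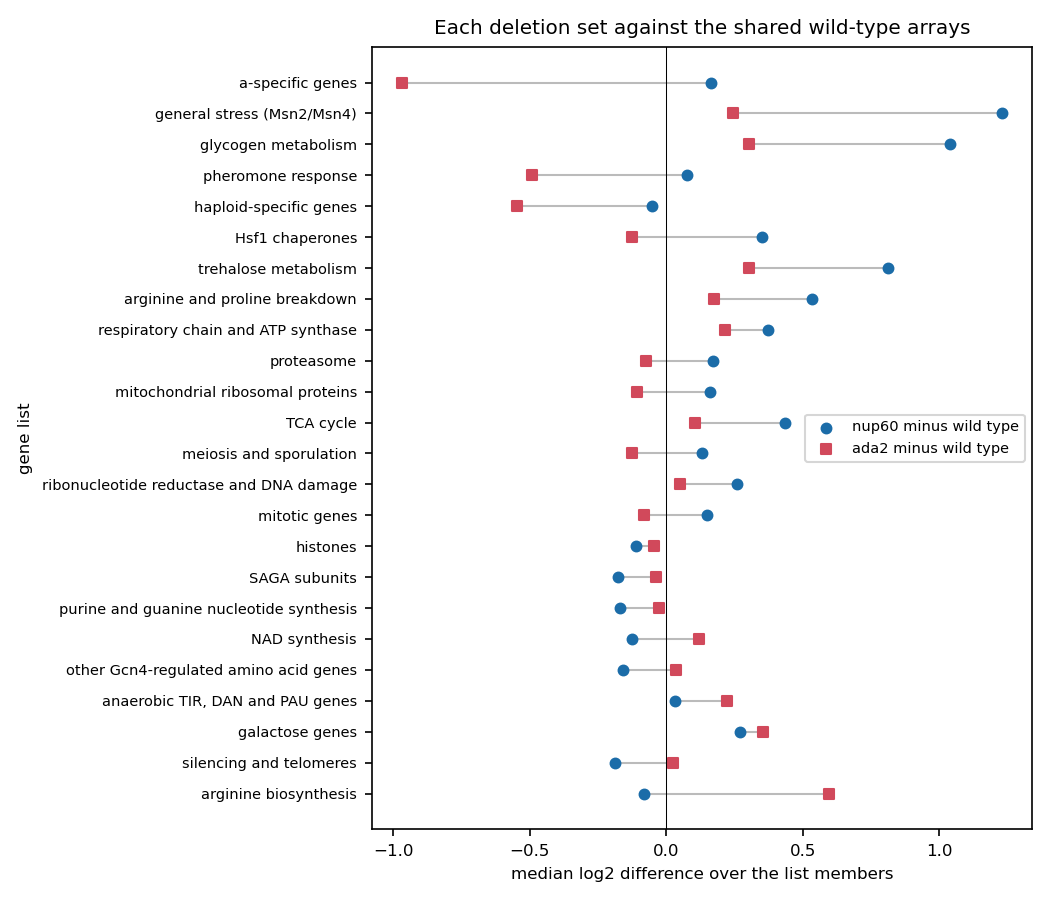
Median log2 difference from the shared wild-type arrays over the members of each list, with nup60 as blue circles and ada2 as red squares joined by a grey line. Lists are shown whose median difference between the strains is at least 0.14 in size, except the alpha-cell list (-0.14), which is left off. General stress genes sit at 1.23 in nup60 and 0.25 in ada2, and a-specific genes at 0.16 in nup60 and -0.97 in ada2.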

How the data were processed

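The deposited intensity values, 1 per probe set and array on a linear scale from 11.4 to 51828, were made with Affymetrix Expression Console 1.1 and RMA from biotin-labelled RNA, per the submitters' processing notes and the labels' protocols. RMA is known to understate folds at low intensities. The values were linear, so log2 was taken here. Of 10928 probe sets, 213 controls, 3470 without a gene in the pairing table and 1 with several genes were set aside. The 1746 probe sets of S. pombe gave the background, their 95th percentile. The remaining 5498 stood for 5449 genes, named through a RefSeq table of assembly R64, with the brightest probe set kept for 47 genes that had several and 115 read by probe sets of shared sequence.

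Genes were tested on 6 arrays with R 4.3.3 and its package limma 3.58.1, each strain having its own mean, eBayes moderation (4 residual and 2.84 prior degrees of freedom) and Benjamini-Hochberg adjustment over all genes. The 2 strains, 45 gene lists and the comparison were chosen with earlier results of these data known. The list of chromosome ends was added later. Lists can share genes, as the pheromone response and ergosterol lists share ERG24, so their counts are not of separate genes. Named are the deleted genes and their neighbours, the 15 largest differences each way among genes past the test with separated arrays and the higher strain above background, and up to 6 members of each list, those with the largest differences. Any member of a list of at most 12 was open to naming. Other members, such as those that did not pass or were the few in one direction, are named after their values were seen. Alternatives covered the arrays fitted, centring and quantile normalization, dim genes, variance moderation, array weights, probe set choice, a replicate block and leaving out arrays. The procedure was tested on simulated data. Figures were drawn with Python 3.11.15 and matplotlib 3.10.9. Promoter sequences were not used here.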

Additional observations from a re-analysis of the deposited data

How the results depend on the processing

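The counts of genes in each direction stayed within 1.5 times of the main ones under all 16 alternatives. A fit of all 12 arrays called 1410 genes higher and 1467 lower, and kept 2872 of the 3737 calls. With a replicate block, which pairs arrays by a number only, 1679 were higher and 1851 lower. Same-numbered arrays did not deviate together (correlations of -0.039, 0.090 and -0.035). Quantile normalization gave 1608 and 2261, with a median over all genes of -0.04, and 137 higher and 47 lower by at least 2-fold. Leaving out 1 array at a time gave 1589 to 1757 higher and 1797 to 1907 lower, with 151 to 168 and 30 to 35 at least 2-fold. Of 3225 values of the 202 named genes, 3187 kept their direction and side of the threshold. Genes not past the test that changed sign were these. ALD4 took -0.001 with quantile normalization and -0.012 to 0.056 with 1 array left out, against 0.03. HSC82 took -0.025 with median centring and -0.0046 with quantile normalization and -0.0048 to 0.0062 with 1 array left out, against 0.00. MET17 took -0.26 to 0.14 with 1 array left out, against -0.07. PAI3 took -0.23 to 0.014 with 1 array left out, against -0.11. STE18 took -0.099 to 0.0097 with 1 array left out, against -0.05. List counts that moved by over 1.5 times, with their range over the alternatives in parentheses, were these. Counts of higher members were alpha-cell genes 1 (1 to 2), arginine biosynthesis 1 (0 to 1), autophagy 14 (8 to 14), cytosolic ribosomal proteins 1 (0 to 14), gluconeogenesis and glyoxylate (Cat8) 8 (5 to 9), histones 2 (1 to 2), nuclear basket and pore 4 (1 to 4), peroxisomal beta-oxidation 5 (3 to 8), ribosome biogenesis 3 (1 to 4), sporulating-cell genes 2 (1 to 3), SUMO pathway 1 (1 to 2). Counts of lower members were alpha-cell genes 1 (0 to 2), arginine and proline breakdown 2 (1 to 2), cytosolic ribosomal proteins 7 (6 to 11), glycogen metabolism 1 (1 to 2), glycolysis 11 (7 to 14), karyopherins, Ran and mRNA export 13 (8 to 15), meiosis and sporulation 8 (5 to 11), mitochondrial ribosomal proteins 2 (1 to 3), mitotic genes 4 (2 to 5), NAD synthesis 11 (7 to 12), nuclear basket and pore 22 (12 to 24), pheromone response 3 (3 to 5), proteasome 1 (0 to 1), sporulating-cell genes 2 (1 to 3), SUMO pathway 7 (2 to 7), TCA cycle 4 (2 to 4), trehalose metabolism 0 (0 to 1). The causes were not tested. Genes near background limit what a small difference can show.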

Other observations

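Of the genes at least 2-fold apart, 83 higher and 18 lower in nup60 belong to none of the 45 lists. The 5 largest each way that are in no list and were not named above, taken after their values were seen, are as follows. GIP2, which encodes a putative regulatory subunit of the Glc7 phosphatase, was at 8.33 to 8.53 in nup60 and 5.61 to 6.37 in ada2, a difference of 2.47 ± 0.18. The ferric reductase gene FRE7 differed by 2.46 ± 0.14, with 11.53 to 11.98 in nup60 and 9.13 to 9.50 in ada2. YCL021W-A differed by 2.42 ± 0.036, the stationary-phase gene SPG4 by 2.38 ± 0.23 and EGO4 by 2.31 ± 0.085. Lower in nup60 were HBN1 (-1.31 ± 0.068), the mitochondrial protein genes MRX10 (-1.26 ± 0.064) and FMP40 (-1.25 ± 0.031), and YIL014C-A (-1.20 ± 0.11). YJL043W was at 5.39, 5.78 and 5.49 in nup60, with arrays 1 and 3 below the background of 5.62, and at 6.63 to 6.86 in ada2, so the size of its difference is not well measured. The lowest ada2 array of GIP2 and of SPG4 was also below background.

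Outside the genes tested, 3470 probe sets have no gene in the pairing table, and 393 of them had a mean above background. In a limma fit of these probe sets alone, 9 were at least 2-fold higher and 6 at least 2-fold lower in nup60 at an adjusted p below 0.05.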
